A study of Homo sapiens with 6 samples.

Results

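The 5S ribosomal RNA array of chromosome 1 is a run of near-identical tandem units, each with a short gene and a long spacer. Peaks were taken from the interval 228605266 to 228651158 of chromosome 1 (build hg38), which reaches 5000 bp beyond the first and the last of the 17 annotated genes RNA5S1 to RNA5S17. The 10 genes described as members are RNA5S1 to RNA5S7 and RNA5S10 to RNA5S12, of 59716 annotated genes on the chromosomes and the mitochondrial genome, and the other 7 genes of the array are given beside them. The interval held 23 of the 598 peaks of RBMX replicate 2 and 29 of the 527 peaks of RPA1 replicate 2. It held 0 of the 258 peaks of RBMX replicate 1 and 0 of the 360 peaks of RPA1 replicate 1.

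The peaks come from sequenced chromatin that was precipitated through a Flag tag. The cells were 293T, an established line of human embryonic kidney origin. One group of cells received Flag-RBMX and the other Flag-RPA1 by transfection, and all had been kept in camptothecin, an inhibitor of topoisomerase I, for 24 hours, so the lists hold no untreated control. There were 2 precipitations per protein and 2 inputs, and the inputs were not analysed here. The labels do not say whether the second precipitation came from a separate culture. The precipitated protein was the one brought in by transfection, and its amount relative to the cells' own protein is not given in the sources used here. After filtering, the libraries held 20199680 and 20089972 tags in replicate 1 and 6664290 and 6889249 tags in replicate 2, for RBMX and RPA1 respectively.

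5S ribosomal RNA is the small RNA of the large ribosomal subunit that RNA polymerase III makes. Its promoter lies inside the gene, where the zinc finger protein TFIIIA binds and brings in the other factors. The other ribosomal RNAs come from the separate 45S units, which RNA polymerase I reads on the short arms of other chromosomes. RBMX belongs to the hnRNP family of proteins, which bind nuclear RNA. RPA1 is the largest chain of RPA, the complex that covers single-stranded DNA. The title of the series names repetitive DNA as the place where both are found, and the array is such a repeat.

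The 5S genes are 121 bp long, and the starts of neighbouring genes lie 2215 to 2242 bp apart. The median distance, taken as the unit length, is 2241 bp, and 7 of the 16 distances equal it. Gene bodies therefore make up 2057 bp of the 35893 bp from the first to the last gene, and spacers the other 33836 bp. The interval also holds the pseudogene RNA5SP18, the start of RHOU and the pseudogene DUSP5P1.

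The only annotated promoter of the RefSeq table inside the interval is the upstream start of RHOU, and it lies in the spacer between RNA5S16 and RNA5S17. It is shown because it is the stretch of spacer under a peak whose sequence was at hand. The window chr1:228644397-228644696 (GRCh38.p14, plus strand) runs from 250 bases before to 50 bases after the start. The start is 720 bp past the end of RNA5S16 and 1391 bp before RNA5S17. Capitals mark runs of 5 or more CA or AC repeats.
RHOU upstream start: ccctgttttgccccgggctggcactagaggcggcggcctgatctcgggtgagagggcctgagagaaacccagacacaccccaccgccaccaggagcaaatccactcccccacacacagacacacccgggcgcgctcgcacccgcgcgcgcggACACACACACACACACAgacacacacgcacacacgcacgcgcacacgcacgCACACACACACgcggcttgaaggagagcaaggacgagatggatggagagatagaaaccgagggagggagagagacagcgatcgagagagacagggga

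All 300 bases of this window lay under a peak in both lists of replicate 2. The RPA1 summit fell at base 230 of the window, and the RBMX summit fell 198 bp past the RHOU start. The sequence holds 2 such repeat runs, the first of 17 bases. The motif ACACACACAC, read on both strands as ACACACACAC or GTGTGTGTGT, is present in 375 of the 35116 promoter windows of that table (1.07%). The GC content of the window is 64.0%, against a median of 58.7% over all promoter windows. A repeat in the letters is a description and says nothing on which protein binds there.

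Peaks of both proteins covered most of the array in replicate 2 and none of it in replicate 1. RBMX peaks covered 28164 bp, or 72.4% of the bases from the first to the last gene, and RPA1 peaks covered 25181 bp, or 64.4% of those bases; the bp counts are over the whole interval. Covered sequence began 1732 bp (RBMX) and 1762 bp (RPA1) before RNA5S1, and ended 453 bp and 481 bp past RNA5S17. Both lists thus started and stopped within 1 unit of the outermost genes, and RNA5SP18 in the downstream flank had no peak. The share of a list's peaks that fell in the array was 3.85% for RBMX (exact 95% interval 2.45% to 5.72%) and 5.50% for RPA1 (3.72% to 7.81%) in replicate 2. These intervals treat the peaks of a single library as separate draws, which neighbouring peaks of the array are not. They also leave out the spread between samples.

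**Figure D1:**
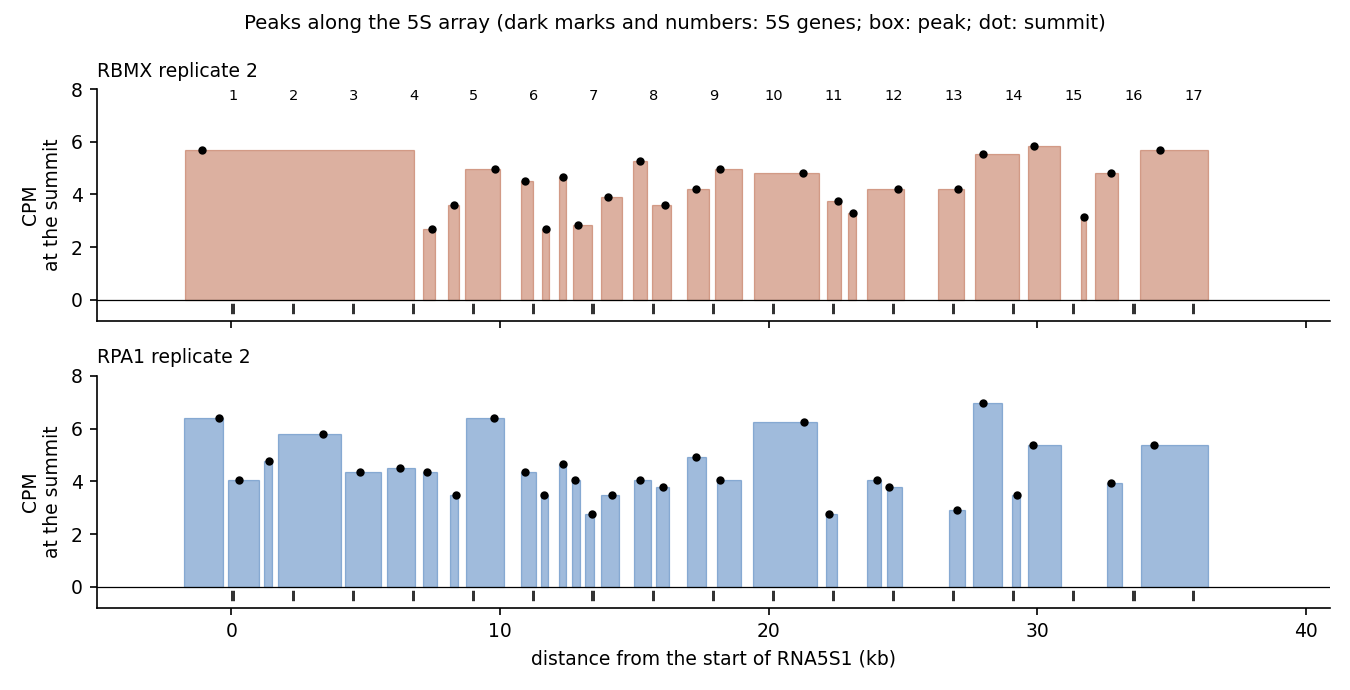
Peaks of RBMX (upper panel) and RPA1 (lower panel) of replicate 2 along the 5S array. The horizontal axis is the distance from the start of RNA5S1 in kb, each box spans a peak, its height and the dot give tags at the summit per 1000000 tags of the library (CPM), and dark marks numbered 1 to 17 are the 5S genes. A single RBMX peak of 8510 bp spans the first 4 genes, where RPA1 has several peaks, and both lists leave RNA5S9, RNA5S15 and RNA5S16 uncovered.

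Over the 4 samples the mean share of peaks in the array was 1.92% ± 2.72 (SD, n = 2) for RBMX and 2.75% ± 3.89 (SD, n = 2) for RPA1. The difference, RBMX minus RPA1, was -0.83 percentage points (exact permutation test, two-sided, p = 1; the smallest p that 2 against 2 samples allow is 0.333). Each protein had a share of 0 in replicate 1, and with these ties no smaller p was possible. The test therefore decides nothing about the proteins. Within replicate 2 the difference was -1.66 points and within replicate 1 it was 0. Peak counts depend on how the array is split, since 1 RBMX peak lay where RPA1 had 6 peaks, over RNA5S1 to RNA5S4. Counted in bases, the array made up 8.82% of the RBMX list and 8.48% of the RPA1 list of replicate 2. The order of the proteins thus depended on the measure. The spread between replicate numbers thus exceeded the difference between the proteins. The replicate numbers also differ in peak caller, p cutoff (1e-05 in replicate 1, 1e-12 in replicate 2), tag length (50 bp and 150 bp) and number of tags, so replicate and processing cannot be told apart. Replicate 1 was called against a local background of up to 10000 bp, the length of 4.46 units, and replicate 2 against 1 level for the whole genome. The part of this setting in the 0 peaks of replicate 1 was not tested.

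The nearest peaks outside the interval were far from it. In replicate 2 both proteins had a peak 48.6 kb before the interval, at 228556488 to 228556689 for RBMX with a fold of 13.0 and at 228556494 to 228556708 for RPA1 with a fold of 13.9. It lay 587 bp and 593 bp from RNA5SP19, a 5S pseudogene, and overlapped no annotated gene. On the other side the next peak of both lists was 7446 kb away. In replicate 1 the nearest peaks before the interval lay in TRIM17, 197 kb away, with folds of 4.44 for RBMX and 5.34 for RPA1. The fold is the authors' ratio of a peak to the background of its own list.

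In replicate 2, RBMX peaks overlapped 14 of the 17 genes of the array and RPA1 peaks 13, by at least 1 bp. Of all annotated genes, 0.255% were overlapped in RBMX replicate 2 and 0.199% in RPA1 replicate 2. All 13 genes with an RPA1 peak also had an RBMX peak, RNA5S8 had an RBMX peak alone, and RNA5S9, RNA5S15 and RNA5S16 had neither. Of the 10 members, all 10 were overlapped in both lists and 0 in replicate 1, where 0.286% and 0.459% of all annotated genes were overlapped for RBMX and RPA1. The members were chosen with peak lists of these samples known, so their count describes them and is no evidence of its own.

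Members at the start of the array lay under the widest RBMX peak. RNA5S1, RNA5S2 and RNA5S3 were covered over all 121 bp in both lists. For RBMX they shared 1 peak of 8510 bp, the widest of the array, at 228608534 to 228617043, with 38 tags at its summit, which lies 1093 bp before RNA5S1. For RPA1 each of them had a peak of its own, whose summit held 28 tags for RNA5S1, 40 for RNA5S2 and 30 for RNA5S3. These summits lay outside the genes, at 170 bp, 1047 bp and 189 bp from them. The RBMX list gives a single summit for these genes, and neither list gives the level at each gene itself.

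RNA5S4, the last gene under the wide RBMX peak, was covered over 55 of 121 bp for RBMX and over 121 bp for RPA1, with 31 tags at the RPA1 summit. RNA5S5 was covered whole in both lists, with 33 tags for RBMX and 44 for RPA1. RNA5S6 was covered over 36 bp for RBMX and 121 bp for RPA1, with 30 tags in each list. Peak edges thus ran through the gene body at RNA5S4 and RNA5S6 for RBMX.

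RNA5S7 was the member with the fewest bases under RBMX, 12 of 121 bp, against 97 bp for RPA1, and it had 19 tags in each list. Its RPA1 peak has the only summit of either list that lies inside a 5S gene. RNA5S10 was covered whole in both lists by peaks of 2437 bp and 2376 bp, with 32 tags for RBMX and 43 for RPA1. RNA5S11 and RNA5S12 were also covered whole, with 25 and 28 tags for RBMX and 19 and 26 tags for RPA1. The tags given for a member are those at the summit of its peak and not those at the gene. For RNA5S10 the RBMX summit lay 1049 bp from the gene. The highest of these summits had 44 tags, so single counts carry wide counting error.

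**Figure D2:**
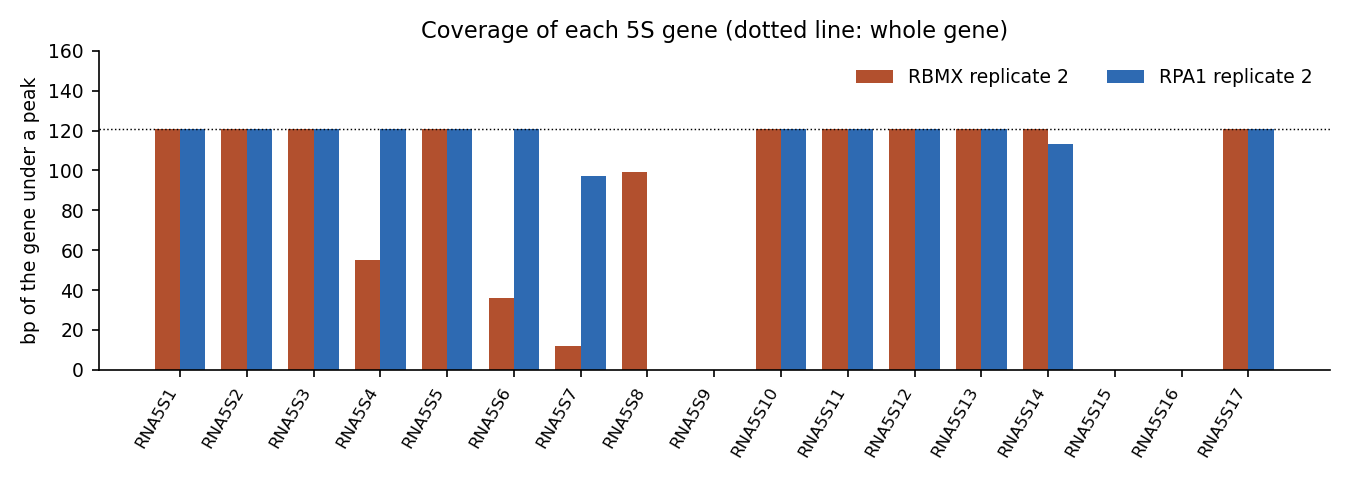
Bases of each 5S gene under a peak in RBMX replicate 2 and RPA1 replicate 2. The vertical axis is bp and the dotted line is the gene length of 121 bp. RNA5S4, RNA5S6 and RNA5S7 have fewer bases under RBMX than under RPA1, and RNA5S8 has bases under RBMX alone.

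The remaining genes of the array held both extremes. RNA5S13 was covered whole in both lists and RNA5S14 over 121 bp for RBMX and 113 bp for RPA1. RNA5S17, the last gene, was covered whole in both lists under a peak of 2529 bp for RBMX and 2493 bp for RPA1. RNA5S8 had 99 bp under an RBMX peak, while the nearest RPA1 peaks ended 10 bp before it and began 64 bp after it. RNA5S9 missed an RBMX peak by 4 bp and an RPA1 peak by 64 bp. RNA5S15 was 203 bp and RNA5S16 156 bp from the nearest RBMX peak, and 407 bp and 220 bp from the nearest RPA1 peak. For RNA5S8 in the RPA1 list, RNA5S9 in both lists and RNA5S16 in the RBMX list, the call thus rests on less than the 200 bp to which the peak caller extended a tag.

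Gene bodies and spacers were covered to a like extent. RBMX peaks covered 68.6% of the gene bases and 72.6% of the spacer bases. RPA1 peaks covered 74.9% of the gene bases and 63.7% of the spacer bases. The order of gene and spacer thus differed between the lists, by 4 points in one and 11 in the other, and with a −log10 p of at least 20 it turned for RPA1, to 58.4% of gene bases and 60.9% of spacer bases. Neither list showed coverage limited to the genes.

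Spacers differed among themselves. Of the 16 spacers, RBMX peaks covered between 38.2% and 100% of the bases, with a median of 68.0%, and RPA1 peaks between 17.2% and 92.5%, with a median of 66.9%. The spacer after RNA5S12 was the least covered in both lists. It holds the longest stretch without a peak in both lists, 1300 bp for RBMX and 1742 bp for RPA1. The 4 units that begin at RNA5S1 to RNA5S4 were covered over 88.4% for RBMX and 79.6% for RPA1, against 66.9% and 59.1% in the 12 units from RNA5S5 on. The first 3 of the 4 carried this value, since the unit of RNA5S4 was covered over 53.7% for RBMX and 54.0% for RPA1. How the reads that fit several units were placed is not given in the sources used here, so values of single units may be less certain than those of the array as a whole.

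Averaged over the 17 genes, the position in the unit made a moderate difference. In steps of 100 bp out to 1100 bp on both sides of the gene middle, RBMX coverage ran from 58.8% to 88.2% and RPA1 coverage from 43.5% to 81.0%. Both were highest at 700 to 600 bp before the gene middle in chromosome direction, since the tables used here give no strand for these genes. The lists differed most at 400 to 300 bp before the gene middle, with 79.0% for RBMX and 43.5% for RPA1. In that step the whole 100 bp lay under RBMX at 13 of 17 genes and under RPA1 at 7. RBMX coverage was the higher in 20 of the 22 steps. The steps of neighbouring units share sequence and 1 library each, and no test was made.

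**Figure D3:**
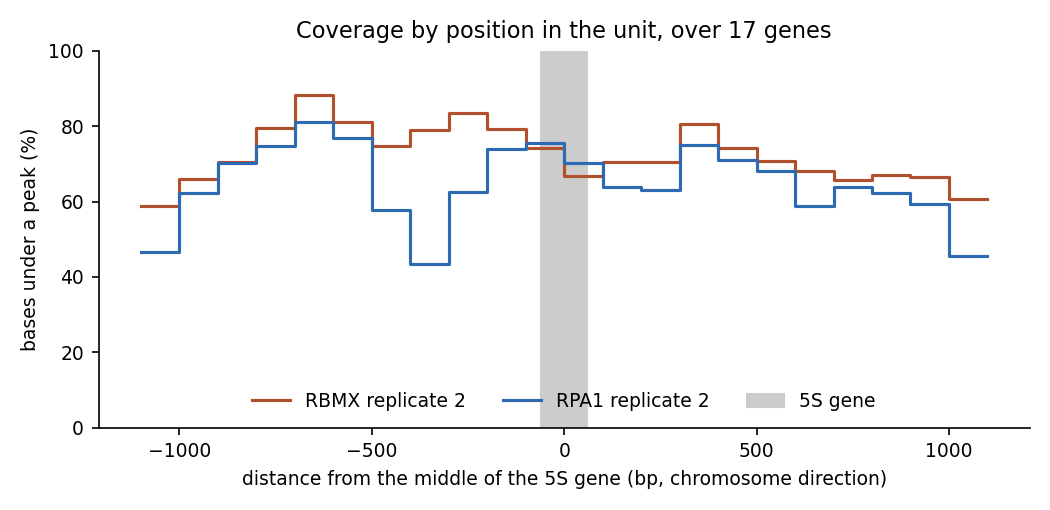
Coverage by position relative to the 5S gene in replicate 2. The horizontal axis is the distance from the gene middle in bp in chromosome direction, the vertical axis is the share of bases under a peak over 17 genes in steps of 100 bp, and the grey band is the gene. Both lines peak at 700 to 600 bp before the gene, and the RPA1 line falls to 43.5% at 400 to 300 bp before it.

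Most neighbouring summits were closer together than the unit length. Neighbouring RBMX summits lay 575 to 8542 bp apart with a median of 1134 bp, 0.51 of a unit, and neighbouring RPA1 summits 449 to 3120 bp apart with a median of 1052 bp, 0.47 of a unit. The RBMX distance of 8542 bp starts at the single summit of the peak of 8510 bp. Of the 22 RBMX distances, 20 were shorter than a unit, and 1 lay within 100 bp of it. Of the 28 RPA1 distances, 25 were shorter and 0 lay within 100 bp of it. Distances within 100 bp of 0.5 unit numbered 5 for RBMX and 4 for RPA1. Neighbouring distances share a summit and come from 1 library per protein, so they are described without a test.

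The listed summits did not recur at the same place in every unit. The lists hold 1 summit per peak, and 3 peaks of each list were wider than a unit. Recurrence inside these wide peaks could not be seen. Another summit of the same list lay 1 unit away, within 100 bp, for 7 of the 23 RBMX summits and 4 of the 29 RPA1 summits. At other distances between 700 and 1800 bp, read with the same tolerance, the number was 2 to 10 (median 6) for RBMX and 4 to 15 (median 8) for RPA1. The value for covered bases was slightly higher at 1 unit than at the other distances scanned: 74.2% of the bases under RBMX were also covered 1 unit on, against 70.8% to 73.2% at distances of 500 to 1800 bp. For RPA1 the value was 67.3%, against 59.7% to 66.1%. Units held a median of 1.5 RBMX summits and 2 RPA1 summits, with a range of 0 to 3 in both lists. The units of RNA5S1, RNA5S2 and RNA5S3, which lay wholly under the RBMX peak of 8510 bp, held 0 RBMX summits.

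**Figure D4:**
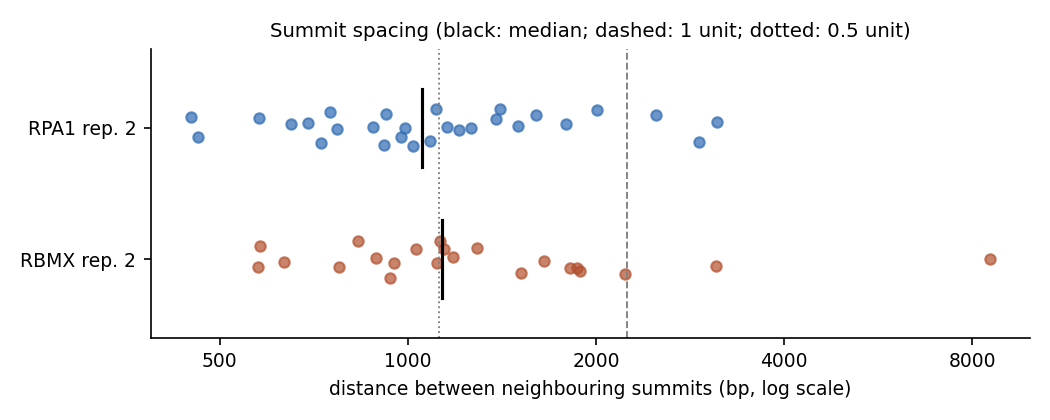
Distances between neighbouring summits in the array in replicate 2. The horizontal axis is the distance in bp on a log scale, each point is a pair of neighbouring summits, black bars are medians, and the dashed and dotted lines mark 1 unit and 0.5 unit. The medians, 1134 bp for RBMX and 1052 bp for RPA1, lie near 0.5 unit, and points spread on both sides of it.

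Summits lay mostly in the spacers, which hold most of the bases. The distance from a summit to the nearest 5S gene ran from 81 to 1093 bp for RBMX, with a median of 595 bp, and from 0 to 1047 bp for RPA1, with a median of 480 bp. Within 200 bp of a gene were 4 of 23 RBMX summits and 7 of 29 RPA1 summits. The RBMX summits nearest to a gene stood beside RNA5S12 (81 bp), RNA5S13 (86 bp) and RNA5S11 (97 bp).

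The pileup at the summit, the number of extended tags there, was modest throughout the array. RBMX summits held 18 to 39 tags with a median of 28, or 2.70 to 5.85 per 1000000 tags of the library (CPM) with a median of 4.20. RPA1 summits held 19 to 48 tags with a median of 28, or 2.76 to 6.97 CPM with a median of 4.06. The median over the whole list was 3.90 CPM for RBMX and 4.64 for RPA1, so the array stood near the middle of both lists. In the RBMX list 162 of 598 summits, and in the RPA1 list 147 of 527, exceeded the highest summit of the array. The authors' folds ran from 12.4 to 26.1 for RBMX and from 10.3 to 25.0 for RPA1.

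The highest RBMX summit, with 39 tags (exact Poisson 95% interval 27.7 to 53.3), belonged to the peak 228639941 to 228641115, between RNA5S14 and RNA5S15. The next were the wide peak over RNA5S1 to RNA5S4 and the peak over RNA5S17 and the RHOU start, with 38 tags each (26.9 to 52.2). The lowest were 2 peaks with 18 tags (10.7 to 28.4), at 228617389 to 228617853 and 228621834 to 228622089, and the peak at the edge of RNA5S7 with 19. The lowest and the highest of these intervals overlap only slightly, by less than 1 tag. These intervals cover counting error only.

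For RPA1 the highest summit, with 48 tags (exact Poisson 95% interval 35.4 to 63.6), belonged to the peak 228637866 to 228638944 between RNA5S13 and RNA5S14. The peak before RNA5S1 and the peak over RNA5S5 followed with 44 tags each (32.0 to 59.1). The lowest were the peaks over RNA5S7 and RNA5S11 with 19 tags each (11.4 to 29.7) and that over RNA5S13 with 20 (12.2 to 30.9). These intervals of the highest and the lowest RPA1 summit did not overlap, though both were picked as extremes. Of these 6 peaks, the 3 lowest lay over a 5S gene and 1 of the 3 highest did. The RBMX list differed. Its lowest peaks, with 18 tags each, lay over no 5S gene, as did its highest, while its peaks with 38 and with 19 tags overlapped 5S genes.

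RBMX and RPA1 peaks overlapped along most of the array. An RPA1 peak overlapped 21 of the 23 RBMX peaks of replicate 2, or 91.3%, with an exact 95% interval of 72.0% to 98.9%. An RBMX peak overlapped all 29 RPA1 peaks, with an interval from 88.1%. Over the whole lists the shares were 76.3% and 87.5%, and outside the array 75.7% and 86.7%. In replicate 1, with 0 peaks in the array, the shares over the whole lists were 41.5% for RBMX and 30.3% for RPA1. The interval of the RBMX share contains the whole-list value, and that of the RPA1 share begins just above it. Since neighbouring peaks share units and 1 library each, these intervals understate the error. RBMX and RPA1 peaks covered 72.4% and 64.4% of the bases from the first to the last gene. An overlap of 1 bp is therefore likely wherever the peaks lie in the array. The shares describe the array and cannot show closer agreement there than in the whole lists, where peaks are sparse. In bases, 24042 bp lay under both proteins, which is 85.4% of the RBMX bases and 95.5% of the RPA1 bases.

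The 2 RBMX peaks with no RPA1 partner were narrow and lay in spacers. The peak 228633239 to 228633533, between RNA5S11 and RNA5S12, was 295 bp wide with 22 tags and a fold of 15.0. The peak 228641889 to 228642088, between RNA5S15 and RNA5S16, was 200 bp wide with 21 tags and a fold of 14.4. Both had fewer tags than the RBMX median of the array. When the overlap had to span 50% of both peaks, 17 of 29 RPA1 peaks (58.6%) had a partner. The 6 RPA1 peaks along the wide RBMX peak over RNA5S1 to RNA5S4 were among those without one, since each is shorter than 50% of it.

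Many summits of the proteins stood at nearly the same base. Of the 23 RBMX summits, 11 had an RPA1 summit within 50 bp and 6 within 10 bp. In the spacer after RNA5S6 the summits were 1 bp apart, with 31 tags for RBMX and 32 for RPA1. In the spacer after RNA5S13 they were 2 bp apart, with 37 and 48 tags. The summits before RNA5S9 were 3 bp apart, with 28 and 34 tags. Both lists thus placed these summits together. The libraries share the cell line, the treatment and the genome build, so the lists are not independent in these respects. Summit distances outside the array are not given here for comparison, and the cause of the match was not tested.

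At matched places the proteins had similar pileups. Overlapping peaks of the lists were merged, which gave 21 shared regions in the array, and the largest summit of each protein was compared there in CPM of its own library. The RBMX to RPA1 ratio had a median of 1.03 (order-statistic 95% interval 0.80 to 1.12) and ran from 0.62 to 1.45, above 1 in 12 regions and below 1 in 9. The lowest ratio was in the spacer after RNA5S4, with 18 tags for RBMX and 30 for RPA1 (exact interval of the ratio 0.33 to 1.15). The highest was at RNA5S13, with 28 and 20 tags (0.79 to 2.71). The counting interval contained 1 in all 21 regions, so a difference between the proteins was not detectable at this depth in any single region.

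**Figure D5:**
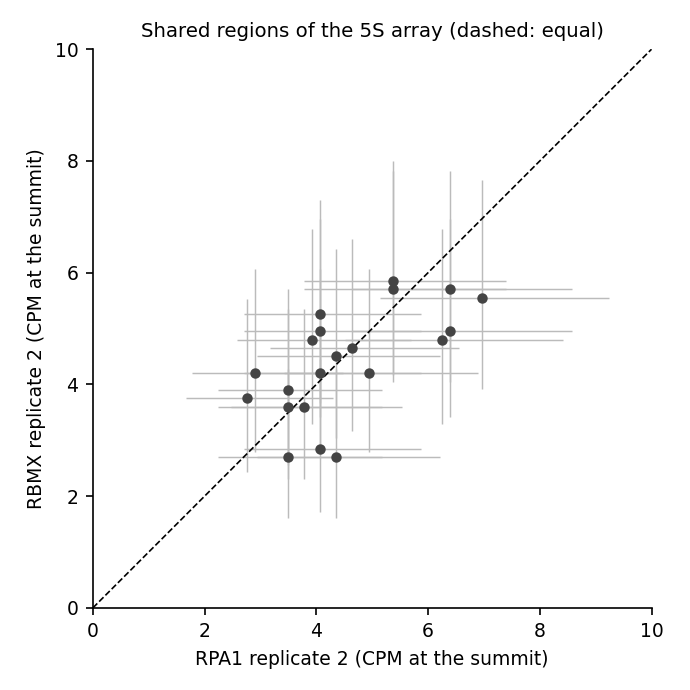
Summit pileups of RBMX against RPA1 in the 21 shared regions of the array in replicate 2. Both axes are CPM, points are regions, bars are exact Poisson 95% intervals, and the dashed line marks equal values. Points lie on both sides of the line, with 12 regions above it and 9 below.

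Regions with many RBMX tags also tended to have many RPA1 tags. Across the 21 regions Pearson's r was 0.63 and Spearman's rank correlation 0.67, given as a description, since the regions share sequence and come from 1 library per protein. Both were lower than in the shared regions outside the array (0.95 and 0.89) and in those of the 45S gene bodies (0.87 and 0.84). A correlation depends on the range of values, which differed. Summits reached 5.85 CPM for RBMX and 6.97 for RPA1 in the array, 5.40 and 5.66 in the 45S bodies, and 59.9 and 57.8 in the whole lists. The part of this range in the lower correlations of the array was not tested. In the 414 shared regions outside the array the median ratio was 0.90 (order-statistic 95% interval 0.87 to 0.91), with 26.6% of regions above 1, against 57.1% in the array. In the 12 shared regions of the 45S gene bodies of chromosome 21, RNA45SN1 to RNA45SN3, the median was 0.82 (0.76 to 0.98). The 5S median was thus the highest of these, and its interval overlaps both others. These intervals are over regions of 1 library per protein and leave out the spread between samples. With the authors' fold in place of CPM the medians were 1.27 in the array, 1.02 in the 45S bodies and 1.11 elsewhere. The array stayed the highest, while its ratio moved away from 1.

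The 5S array, with its spacers, was covered more fully than the 45S bodies, the other ribosomal RNA units with peaks. RBMX peaks covered 72.4% of the 5S array from the first to the last gene and 23.2% of the 45S bodies, and RPA1 peaks 64.4% and 20.4%. The 45S values leave out the spacers between the 45S units. For the 5S gene bases alone the values were 68.6% for RBMX and 74.9% for RPA1. The 45S bodies add up to 39975 bp on chromosome 21, with 21 RBMX and 14 RPA1 peaks. Their median summit was lower, at 2.70 CPM for RBMX and 3.48 for RPA1. With 1 library per protein, the difference was not tested. No list was called against the input level at the place of each peak, so binding, copy number and mappability cannot be told apart in either repeat.

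No peak overlapped the other genes of the 5S pathway that were listed. The list held 23 genes, most of them for 5S transcription or the 5S particle. Among them were GTF3A, which encodes TFIIIA, and RPL5 and RPL11, which encode the ribosomal proteins that carry 5S RNA. Of these 23 genes, 0 were overlapped in any of the 4 lists. The same held for 20 other genes read by RNA polymerase III, among them RN7SK and RMRP, and for the 510 dispersed 5S pseudogenes. With 0.199% to 0.459% of all annotated genes overlapped per list, counts of 0 in lists of these sizes are near the background and are no result about these genes. Of 16 placed genes of the 45S list, 10 were overlapped in RBMX replicate 2 and 8 in RPA1 replicate 2, against 0.255% and 0.199% of all annotated genes, and 0 in replicate 1. Several of these genes lie inside another gene of the same list, so they are not separate counts. The highest fold among them was at RNA45SN2, 24.1 for RBMX and 20.5 for RPA1.

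The genes outside the array whose 4 values were most like the members' were ADAP1 on chromosome 7, RNA45SN1 on chromosome 21 and AGAP1 on chromosome 2. Likeness was the Euclidean distance on log2(fold + 1) over the 4 lists, with 0 for no peak. The member medians were folds of 21.8 for RBMX and 15.9 for RPA1 in replicate 2. For RBMX, RNA5S1 to RNA5S4 took the same fold of 25.4 from the peak they share, so that peak entered the median once for each of them. ADAP1 and RNA45SN1 both had 21.5 and 16.4 (distance 0.05), and AGAP1 had 20.9 and 15.9 (distance 0.06). All 3 had no peak in replicate 1. TMSB10P1, a pseudogene inside AGAP1, had the same values as AGAP1.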

How the data were processed

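Build hg38 (GRCh38), Bowtie2 and deepTools 3.4.1 are named in the submitters' processing notes, without a role. Replicate 1 peaks were called with MACS 1.4.2 at a p cutoff of 1e-05 with no control, per the file headers. In these lists the authors gave tag counts, a score that is a multiple of the −log10 p and a fold ratio. Replicate 2 peaks were called with MACS2 2.2.4 at 1e-12 with the input as control and no local background, per the file headers; the deposited pileup is a signal scaled to the smaller library, beside −log10 p and q values and a fold ratio. With that scale undone, 100% of summit pileups lay within 0.02 of a whole number of tags, and these numbers were expressed as tags per 1000000 filtered tags of the precipitated library (CPM). Replicate 2 is named so in the labels, whereas replicate 1 is a name given here by accession order.

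The interval was the 5S genes plus 5000 bp on both sides. Genes were placed with RefSeq's GRCh38.p14 table. Overlap meant at least 1 bp. Named peaks were the 3 largest and 3 smallest summits per list and those with no partner; named genes were all of the array, its neighbours, a fixed pathway list and the 3 most alike genes. The members and lists were chosen with earlier results of these data known. Alternatives covered threshold, overlap, interval, gene limits, summit or midpoint, pileup or fold, and each replicate. Intervals are exact (Clopper-Pearson, Poisson) or order-statistic at 95%. Functions were tested on simulated data. Python 3.11.15, pandas 2.3.3, NumPy 2.4.6, SciPy 1.17.1 and matplotlib 3.10.9 were used.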

Additional observations from a re-analysis of the deposited data

How the results depend on the processing

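Of 55 alternative values of 24 results, 51 stayed within 1.5 times the reported count or inside its interval, 4 moved beyond it, and 0 changed sign. Many of the 51 could not move: stricter settings cannot change the 0 values of replicate 1. The lowest −log10 p of an RBMX array peak in replicate 2 was 21.8, above the stricter threshold of 20. The tally is therefore no measure of robustness, and it does not count the turned order of gene and spacer coverage given below. Requiring that 50% of both peaks be shared left 58.6% of the 29 RPA1 array peaks with a partner, from 100%, and 73.9% of the 23 RBMX peaks, from 91.3%. The authors' fold in place of pileup raised the median RBMX to RPA1 ratio in shared regions from 1.03 to 1.27; the fold also divides by the background level of each list. The share of peaks in the array, RBMX minus RPA1, ranged from -1.66 without replicate 1 to 0 without replicate 2, both with no test, and was -1.19 with only chromosome peaks as the denominator. At a −log10 p of at least 20, all 23 RBMX and 26 of 29 RPA1 peaks of the array remained, and the RPA1 genes overlapped fell from 13 to 10. That threshold also turned the order of gene and spacer coverage for RPA1, from 74.9% and 63.7% to 58.4% and 60.9%. When 50% of the gene had to be covered, 11 genes were overlapped for RBMX and 13 for RPA1. The labels number only the second samples, but samples given the same number share a caller and settings. With the replicate block, an alternative chosen after seeing the data, the difference in shares was again -0.83 points (exact permutation within numbers, two-sided, p = 1; the smallest p its 4 regroupings allow without ties is 0.5). Both replicate 1 shares were 0, so every regrouping gave a difference of the same size. The outcome of this test was thus fixed in advance. The lowest summits held 18 and 19 tags, so differences between single regions are limited by counting error.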
